A study of Mus musculus with 6 samples.

Results

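The 10 genes described here build and load MHC class I molecules, the surface complexes through which a cell shows peptides from its own proteins to CD8+ T cells. They were chosen by symbol for their role in the pathway, with earlier results of these data known. All 10 were found among the 28773 genes listed in each sample. The heavy chains are H2-K1 and H2-D1, which are classical, and H2-Q7 and H2-T23, which are non-classical and belong to the Qa antigens. B2m encodes the light chain. Tap1 and Tap2 encode the peptide transporter, Tapbp encodes tapasin, Erap1 encodes an aminopeptidase and Nlrc5 encodes a transactivator of class I genes. All 10 had a higher mean FPKM after MWA+2DG than after MWA+PBS on the deposited scale, by 1.16 to 1.69 times in the ratio of group means.

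Bulk RNA came from splenic CD8+ T cells that a kit had isolated on day 35 after tumor inoculation. In the MWA+PBS group (n = 3, replicates 1 to 3), the primary tumor was destroyed by microwave ablation (MWA) and the mice then received the PBS vehicle. In the MWA+2DG group (n = 3, replicates 4 to 6), ablation was followed by 2-deoxy-D-glucose (2DG), a glucose analogue that blocks glycolysis, injected intraperitoneally until a few days before day 35. Both groups thus carried an ablated tumor, and no group without ablation was analysed here. The mice were wild-type females of the BALB/c or C57BL/6 strain, listed in the methods as 6 weeks old. Their age on day 35 is not given. The labels do not say which strain or tumor line gave these samples or whether a sample was 1 mouse or a pool. The p-values therefore measure the spread between these samples, which may be partly technical. The files hold no read counts, so the depth behind a value is unknown.

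In a nucleated cell the proteasome cuts proteins into peptides, the Tap1 and Tap2 transporter carries the peptides into the endoplasmic reticulum, and Erap1 trims them there. Tapasin bridges the transporter and an empty heavy chain with its light chain, so that a peptide can be loaded before the complex moves to the surface. Interferons raise the transcription of most of these genes through IRF factors, among others, and Nlrc5 acts at the promoters of the heavy chains, B2m, Tap1 and immunoproteasome genes. T cells carry class I molecules themselves, and lymphocytes are among the cells with the highest levels.

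H2-K1, H2-D1, H2-Q7, H2-T23, Tap1, Tap2 and Tapbp lie on mouse chromosome 17, where the H2 complex is. B2m lies on chromosome 2, Nlrc5 on chromosome 8 and Erap1 on chromosome 13. The sequences below show the 250 bases upstream of the start of the 4 heavy chains and of B2m, because those genes gave both the smallest and the largest differences among the subunits of the complex itself. They are RefSeq sequences of the C57BL/6J reference (GRCm38.p6), 5′ to 3′ on the gene's strand, and were read from the reference and not from these mice. Capitals mark GGATTCC (the centre of the NF-kappaB site of enhancer A), AANNGAAA (the core of an IRF site), TGACG (a CREB site core) and CCAAT (the NF-Y box), each on either strand.
H2-K1: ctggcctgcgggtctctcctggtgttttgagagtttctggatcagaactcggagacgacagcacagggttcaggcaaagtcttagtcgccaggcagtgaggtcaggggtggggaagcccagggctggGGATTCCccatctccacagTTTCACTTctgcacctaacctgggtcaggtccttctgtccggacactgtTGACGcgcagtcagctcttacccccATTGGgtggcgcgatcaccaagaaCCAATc
H2-D1: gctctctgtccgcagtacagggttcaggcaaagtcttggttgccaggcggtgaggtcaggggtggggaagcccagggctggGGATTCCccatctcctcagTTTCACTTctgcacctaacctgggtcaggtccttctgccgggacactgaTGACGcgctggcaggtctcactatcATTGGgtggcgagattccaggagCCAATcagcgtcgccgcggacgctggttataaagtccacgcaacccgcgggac
H2-Q7: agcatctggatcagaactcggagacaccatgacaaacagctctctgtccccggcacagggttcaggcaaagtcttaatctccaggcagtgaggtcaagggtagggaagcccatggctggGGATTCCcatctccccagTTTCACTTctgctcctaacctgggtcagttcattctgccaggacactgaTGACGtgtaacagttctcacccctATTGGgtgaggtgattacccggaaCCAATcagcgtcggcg
H2-T23: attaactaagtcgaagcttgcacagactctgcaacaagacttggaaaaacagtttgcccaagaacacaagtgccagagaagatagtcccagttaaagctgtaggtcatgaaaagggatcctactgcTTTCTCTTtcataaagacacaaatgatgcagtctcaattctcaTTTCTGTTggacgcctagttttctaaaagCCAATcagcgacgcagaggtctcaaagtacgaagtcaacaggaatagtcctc
B2m: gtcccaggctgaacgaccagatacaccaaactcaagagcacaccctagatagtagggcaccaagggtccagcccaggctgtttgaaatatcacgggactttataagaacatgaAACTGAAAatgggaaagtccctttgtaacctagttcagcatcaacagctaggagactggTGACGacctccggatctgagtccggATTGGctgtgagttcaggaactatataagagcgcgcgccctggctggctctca
The stretches are chr17:34000334-34000583 (minus strand) for H2-K1, chr17:35262844-35263093 (plus strand) for H2-D1, chr17:35438905-35439154 (plus strand) for H2-Q7, chr17:36032702-36032951 (minus strand) for H2-T23 and chr2:122147437-122147686 (plus strand) for B2m. For H2-K1, which has 2 starts in the table, the one further downstream was used.

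The motifs were counted in windows of 250 bases before to 50 bases after the start, for the 8 members that had such a window. GGATTCC occurred in 3 of them (H2-K1, H2-D1 and H2-Q7), against 3.79% of 32851 promoters in the same table. AANNGAAA occurred in 6 of 8, against 23.9% of all promoters. CCAAT occurred in 7 of 8 (37.4% of all promoters), TGACG in 5 of 8 (20.8%) and its longer form TGACGC in 2 of 8 (7.4%). TTCNNNGAA, the palindromic GAS motif, occurred in 0 of 8, against 8.3% of all promoters. H2-K1, H2-D1 and H2-Q7 all held the 4 capitalised motifs in the same order, and TGACGC was found in H2-K1 and H2-D1. The upstream stretches of H2-K1, H2-D1 and H2-Q7 are much alike, so these 3 genes are not independent cases. H2-T23 had matches to AANNGAAA and CCAAT only. These matches describe letters in a reference window, none was measured as bound, and their part in the differences was not tested. The motifs are sites of factor families that regulate class I genes, so they were not chosen blind to the pathway.

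Values are FPKM, in which fragments are divided by the length of the transcript and by the size of the library, so that levels of different genes can be set side by side. B2m had the highest level and Erap1 the lowest in both groups. In MWA+PBS the mean levels ran from B2m (1452 FPKM) through H2-D1 (369), H2-K1 (141), H2-Q7 (84.5), Tapbp (75.7), H2-T23 (66.8), Nlrc5 (44.5), Tap2 (40.4) and Tap1 (40.2) to Erap1 (25.8). The 3 samples of H2-Q7 and Tapbp, of Tapbp and H2-T23, and of Tap2 and Tap1 overlapped, so those neighbours in the order were not separated by the spread of their samples. In MWA+2DG the order was B2m (1756 FPKM), H2-D1 (457), H2-K1 (187), H2-Q7 (143), H2-T23 (108), Tapbp (98.9), Nlrc5 (66.5), Tap1 (61.8), Tap2 (46.9) and Erap1 (33.4), and the values of H2-T23 and Tapbp were the only neighbours that overlapped. B2m was the 20th highest of 28773 genes in every one of the 6 samples, so its place among abundant transcripts did not move. H2-Q7 moved from places 352 to 394 in MWA+PBS to places 212 to 218 in MWA+2DG.

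**Figure D1:**
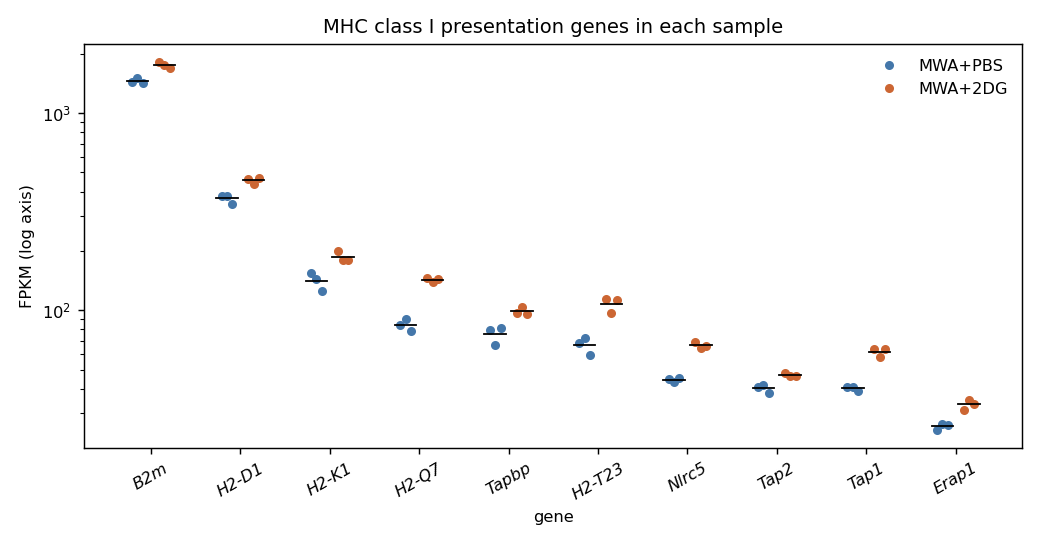
FPKM (log axis) of each of the 10 class I presentation genes in the 3 MWA+PBS samples (blue) and the 3 MWA+2DG samples (orange), ordered by the MWA+PBS mean, with a black bar at each group's mean. The 3 orange points lie above the 3 blue points for every gene, and B2m lies far above the others in both groups.

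Differences between the groups were tested with limma on log2(FPKM + 1), two-sided, over the 12444 genes with a mean of at least 1 FPKM, which all 10 members passed. A log2 fold change below is MWA+2DG minus MWA+PBS on that scale, with its standard error (SE), and adjusted p is Benjamini-Hochberg adjusted over all tested genes. All 10 members were higher at an adjusted p under 0.05, where 22.3% of all tested genes were called higher and 17.1% lower. By the rule of the study's methods, an unadjusted P under 0.05 together with a size of over 0.25 on the log2 scale, 9 of 10 were higher, Tap2 being the exception, where 21.6% of all tested genes were called higher and 16.6% lower. In all 10 the lowest MWA+2DG sample lay above the highest MWA+PBS sample, which was so for 30.2% of all tested genes, while the opposite order held for 21.9%. The median log2 fold change was 0.39 over the members and 0.05 over all tested genes. These shares show how many genes differed between the groups, and no test was made of the members as a set. The members were chosen with earlier results of these data known, so their counts are a description only.

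Of the 4 member heavy chains, the non-classical H2-Q7 and H2-T23 had the larger differences. Among the other tested H2 genes, H2-Q6 (log2 fold change 0.33), H2-Q1 (0.32) and H2-Q2 (0.06) lay below the classical H2-K1 (0.40). H2-Q2 had a low level (mean 4.73 FPKM) and did not pass (limma adjusted p = 0.819). H2-Q4 (0.43), H2-T10 (0.58), H2-T22 (0.62), H2-Q10 (0.67), H2-M3 (0.73), H2-K2 (0.78) and H2-T24 (0.86) lay above H2-K1. These genes were set against H2-K1 after their values were seen, and a difference between the classes was not tested. H2-Q7, a gene of the Qa-2 antigen, was at 84.2, 90.6 and 78.7 FPKM in MWA+PBS replicates 1 to 3 and at 146, 139 and 143 FPKM in MWA+2DG replicates 4 to 6. Its groups lay far apart and its log2 fold change was 0.75 ± 0.06 (SE; 95% interval 0.61 to 0.90; limma adjusted p = 0.000105). H2-T23, whose product presents leader peptides of other class I chains to CD94/NKG2 receptors, was at 68.1, 72.8 and 59.4 FPKM in MWA+PBS and at 114, 97.0 and 113 FPKM in MWA+2DG. Replicate 5 was the lowest MWA+2DG sample and still lay above every MWA+PBS sample. Its log2 fold change was 0.69 ± 0.09 (SE; 95% interval 0.47 to 0.91; limma adjusted p = 0.00109).

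The classical members H2-K1 and H2-D1 present peptides to the T cell receptor. H2-K1 was at 154, 144 and 126 FPKM in MWA+PBS and at 200.3, 180.2 and 179.8 FPKM in MWA+2DG. The groups did not overlap, although MWA+PBS replicate 3 lay below the other replicates of its group. Its log2 fold change was 0.40 ± 0.09 (SE; 95% interval 0.20 to 0.60; limma adjusted p = 0.00866). H2-D1 was at 382, 379 and 347 FPKM in MWA+PBS and at 466, 436 and 469 FPKM in MWA+2DG. MWA+PBS replicate 3 was again the lowest sample, and the groups did not overlap. The log2 fold change of H2-D1 was 0.31 ± 0.06 (SE; 95% interval 0.16 to 0.46; limma adjusted p = 0.00818).

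Because the heavy chains rose by unequal amounts, their make-up shifted. H2-D1 held 55.8% ± 0.84 (SD, n = 3) of the summed FPKM of the 4 heavy chains in MWA+PBS, against 51.1% ± 0.79 in MWA+2DG. The share of H2-Q7 was 12.2%, 13.2% and 12.9% in the MWA+PBS samples and 15.8%, 16.3% and 15.8% in the MWA+2DG samples. That of H2-T23 was 9.89%, 10.6% and 9.74%, and 12.3%, 11.4% and 12.5%. Both shares were higher in every MWA+2DG sample, while H2-K1 stayed at 21.3% and 20.9% with overlapping samples. H2-K1 and H2-D1 together held 77.2% ± 0.85 in MWA+PBS and 72.0% ± 0.30 in MWA+2DG, and the groups did not overlap. These shares do not depend on the scaling of a library and were not tested. The heavy chains share stretches with other H2 genes: of the 50-base windows of their transcripts in GENCODE M21, 8.79% for H2-K1, 14.3% for H2-D1, 28.8% for H2-T23 and 34.9% for H2-Q7 also occur in another gene, for H2-Q7 most often in H2-Q6 (19.3%). The sources used here do not say how such reads were split between genes, and H2 alleles of the mice may differ from the reference, so single heavy chain values are uncertain. B2m, Erap1 and Nlrc5 shared no such window, and Tap1, Tap2 and Tapbp shared at most 2.0%.

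**Figure D2:**
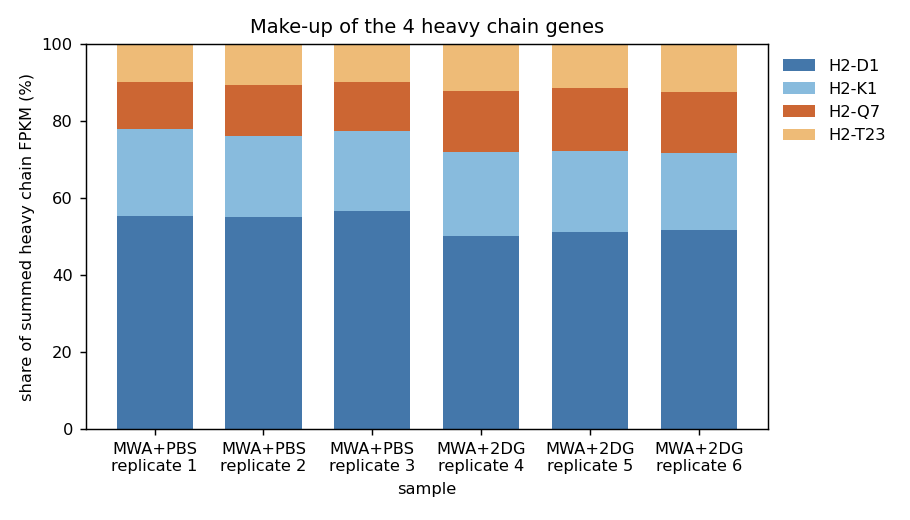
Share (%) of the summed FPKM of H2-D1, H2-K1, H2-Q7 and H2-T23 held by each gene, 1 stacked bar per sample. H2-K1 and H2-D1 (blue shades) together hold 77.2% on average in the 3 MWA+PBS bars and 72.0% in the 3 MWA+2DG bars, with H2-Q7 and H2-T23 (orange shades) taking the rest.

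B2m, the light chain shared by all class I molecules, was at 1441, 1500 and 1414 FPKM in MWA+PBS and at 1809, 1758 and 1701 FPKM in MWA+2DG. All MWA+2DG samples were higher, and the gap between the groups was wider than the range within either of them. The log2 fold change was 0.27 ± 0.07 (SE; 95% interval 0.12 to 0.43; limma adjusted p = 0.0158), the smallest but that of Tap2. The call was lost with quantile normalization (log2 fold change 0), without a filter on low values (adjusted p = 0.198) and without MWA+PBS replicate 1 or 3 or MWA+2DG replicate 4 or 5 (adjusted p from 0.0504 to 0.0622). B2m stood at 2.20 ± 0.11 (SD, n = 3) times the summed FPKM of the 4 heavy chains in MWA+PBS and at 1.96 times in MWA+2DG, and every MWA+2DG ratio lay below every MWA+PBS ratio.

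The transporter subunits, which work as a heterodimer, differed by unequal amounts. Tap1 was at 41.0, 40.6 and 39.0 FPKM in MWA+PBS and at 63.9, 58.1 and 63.5 FPKM in MWA+2DG. The groups were widely separated, and the log2 fold change was 0.61 ± 0.06 (SE; limma adjusted p = 0.000175). Tap2 was at 41.1, 41.8 and 38.2 FPKM in MWA+PBS and at 48.1, 46.3 and 46.3 FPKM in MWA+2DG. The groups did not overlap but lay close, and the log2 fold change was 0.21 ± 0.05 (SE; 95% interval 0.09 to 0.34; limma adjusted p = 0.0178), the smallest of the members. The call of Tap2 was lost without MWA+PBS replicate 3, MWA+2DG replicate 4 or MWA+2DG replicate 6 (adjusted p from 0.0512 to 0.0686). The ratio of Tap1 to Tap2 was 0.999, 0.971 and 1.02 in the MWA+PBS samples and 1.33, 1.25 and 1.37 in the MWA+2DG samples, so the subunits were at nearly equal FPKM after PBS, while Tap1 was above Tap2 in every sample after 2DG.

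Tapbp, the tapasin gene, was at 79.2, 66.8 and 81.0 FPKM in MWA+PBS and at 97.3, 104 and 95.4 FPKM in MWA+2DG. Its spread was wide in MWA+PBS because of replicate 2, and the groups did not overlap (log2 fold change 0.39 ± 0.08 (SE); limma adjusted p = 0.00828). Erap1, which trims the N-terminal end of peptides to the length that class I molecules hold, was at 24.8, 26.4 and 26.2 FPKM in MWA+PBS and at 31.2, 35.2 and 33.7 FPKM in MWA+2DG. Every MWA+2DG sample was higher, and the difference was 0.36 ± 0.06 (SE) on the log2 scale (limma adjusted p = 0.00311). Nlrc5 was at 44.9, 43.1 and 45.4 FPKM in MWA+PBS and at 69.1, 64.6 and 65.7 FPKM in MWA+2DG. Nlrc5 varied little within either group, and its log2 fold change was 0.57 ± 0.05 (SE; limma adjusted p = 0.000145), close to that of Tap1.

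Markers of several cell types differed between the groups in the same samples as the members. The summed FPKM of 16 T lineage genes was 2027 to 2199 with PBS and 2883 to 3111 with 2DG, with all 16 higher in the MWA+2DG mean. The summed level of 10 macrophage markers was 546 to 597 with PBS and 83.7 to 91.8 with 2DG (all 10 lower), and that of 9 erythroid markers was 294 to 350.0 and 67.2 to 85.3 (all 9 lower). The summed level of 10 neutrophil markers was 57.0 to 83.3 with PBS and 1567 to 1747 with 2DG (all 10 higher), and that of 10 B cell markers was 11 to 12.2 and 63.2 to 68.9 (all 10 higher). No marker of these lists was listed at 0 in any sample. Of the other lists, 10 dendritic cell markers summed to 36.4 to 42.7 and 34.3 to 38.7 FPKM (2 of 10 higher), 5 natural killer cell markers to 30.4 to 32.3 and 50.8 to 54.5 (2 of 5 higher), and 6 CD4 T cell markers to 11.3 to 12.0 and 9.43 to 9.57 (4 of 6 higher), with 1 dendritic cell and 1 natural killer cell marker listed at 0 in a sample. Of the dendritic cell sum, Bst2, which is also an interferon-induced gene, made up the largest part with a mean of 20.9 FPKM with PBS and 24.9 with 2DG, and the other 3 tested markers (Flt3, Itgax and Ccr9) were lower at an adjusted p under 0.05. The higher natural killer cell sum came from Eomes, which memory CD8+ T cells also express and which had a mean of 22.8 FPKM with PBS and 45.7 with 2DG, whereas Ncr1 fell (6.54 and 4.92 FPKM). These genes were singled out after their values were seen. Nucleated cells of these types carry class I molecules as well, and their part in the members' differences was not tested. In bulk samples fewer cells of a type and less RNA per cell cannot be told apart.

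To set the members against the T cells in each sample, the mean log2 value of the 16 T lineage genes was subtracted from every gene. This scaling moved the median of all tested genes from 0.05 to -0.41, and under it 9313 genes were called, 4.53% of them higher. Relative to the T lineage genes, H2-Q7 (log2 fold change 0.30, limma adjusted p = 0.00143), H2-T23 (0.23, adjusted p = 0.0154) and Tap1 (0.15, adjusted p = 0.0252) remained higher in MWA+2DG. H2-D1 (-0.15, adjusted p = 0.0252), B2m (-0.18, adjusted p = 0.0285) and Tap2 (-0.25, adjusted p = 0.00319) became lower. Nlrc5 (0.11, adjusted p = 0.13), H2-K1 (-0.05), Tapbp (-0.07) and Erap1 (-0.10) did not pass the threshold. The scaling shifts every gene by the same amount, so the order of the members and their distance from the median of all tested genes (0.17 for Tap2 to 0.71 for H2-Q7) are equal under both scalings by construction. For the same reason each member whose difference lay below that of the T lineage genes took a negative sign, which were H2-K1, H2-D1, B2m, Tap2, Tapbp and Erap1. The T lineage genes are not fixed references, since their own transcription may differ between the groups.

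**Figure D3:**
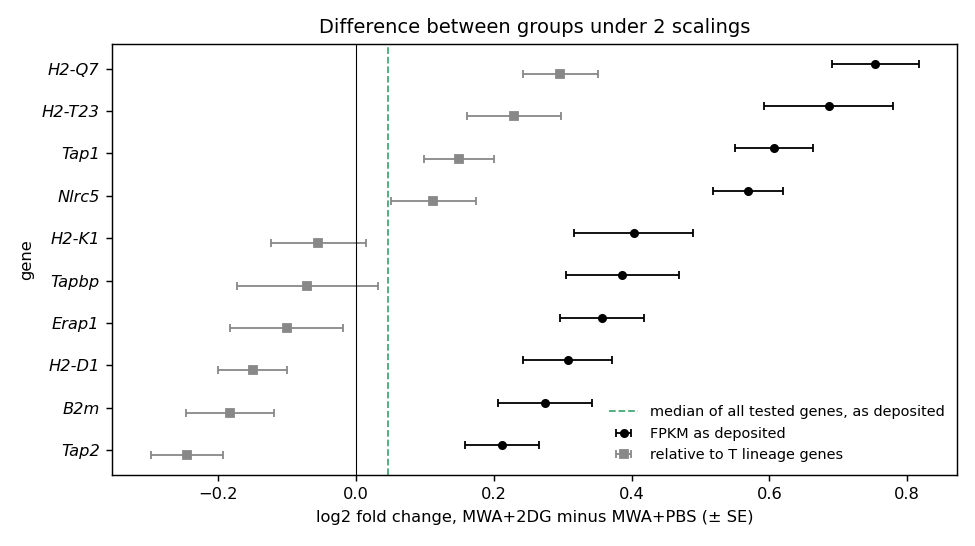
Log2 fold change (MWA+2DG minus MWA+PBS) with its standard error for each member, from the deposited FPKM (black circles) and relative to 16 T lineage genes (grey squares), with the median of all tested genes on the deposited scale as a dashed line. All black circles lie to the right of 0 and of the dashed line, while 4 grey squares lie to the right of 0 and 6 to the left.

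The rest of the class I pathway was described from hand-written lists of 68 genes, of which 63 were found and 57 tested. Of these 57, 28 were higher, 8 were lower and 21 did not pass an adjusted p of 0.05 in limma, with a median log2 fold change of 0.19, against 0.05 over all tested genes, of which 22.3% were called higher and 17.1% lower. Among 14 other class I and class I-like heavy chains, 10 were higher and 2 lower (median 0.48). H2-T24 rose by 0.86 ± 0.05 (SE) on the log2 scale and H2-K2 by 0.78 ± 0.22, the latter call being lost without MWA+PBS replicate 1 or 3 or MWA+2DG replicate 4 or 6. The chains that fell were Hfe, which regulates iron uptake (-1.95 ± 0.11), and Fcgrt, the neonatal Fc receptor that recycles IgG (-1.32 ± 0.06), neither of which presents peptides. Hfe was at 6.58, 6.75 and 6.14 FPKM in MWA+PBS and 1, 0.67 and 1.19 in MWA+2DG, groups that lay far apart. Both fell together with the macrophage markers, whose part was not tested. H2 genes of both lists summed to 1067 ± 60.3 FPKM (SD, n = 3) with PBS, against 1464 FPKM with 2DG.

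The immunoproteasome, the proteasome form that interferon induces and that cuts peptides well suited to class I molecules, was described together with its PA28 activator. All 5 genes of that list were higher (median 0.39), the subunits Psmb8, Psmb9 and Psmb10 and the activator genes Psme1 and Psme2. Over all tested genes, 22.3% were called higher and the median log2 fold change was 0.05. Psmb9 rose by 0.46 ± 0.07 (SE), Psme2 by 0.45 ± 0.15, Psmb8 by 0.39 ± 0.07 and Psmb10 by 0.31 ± 0.06 on the log2 scale in limma. Psme2 passed narrowly (adjusted p = 0.0464), and its call was lost when any sample but MWA+PBS replicate 2 was left out (0.29 without MWA+PBS replicate 3), and with no filter on low values, with median ratio scaling and with eBayes without a trend, each of which left 4 of the 5 genes called. None of the 3 constitutive catalytic subunits, whose places Psmb8, Psmb9 and Psmb10 take, passed the test (Psmb5, Psmb6 and Psmb7, log2 fold changes from -0.11 to 0.08; 0 at an adjusted p under 0.05 and 0 at an unadjusted p under 0.05). The ratio of Psmb8 to Psmb5 was 2.77, 2.92 and 2.65 in the PBS samples and 4.23, 3.73 and 3.30 in the 2DG samples. The ratio of Psmb10 to Psmb7 went from a mean of 3.15 to 4.27 and that of Psmb9 to Psmb6 from 1.04 to 1.37. In each of these ratios the MWA+2DG samples lay above all MWA+PBS samples, whatever the scaling of a library, as did those of Tap1 to Tap2. Relative to the T lineage genes, by contrast, Psmb9 was at 0.00, Psme2 at -0.01, Psmb8 at -0.06 and Psmb10 at -0.15.

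The chaperones that help tapasin did not move together. Of 6 loading partners, Tapbpl, the gene of the tapasin-related peptide editor TAPBPR, rose by 0.55 ± 0.07 (SE) on the log2 scale. The lectin chaperones fell, Canx by 0.36 ± 0.06 and Calr by 0.34 ± 0.07, and the other 3 did not pass the test. Over all tested genes, 22.3% were called higher and 17.1% lower. Of 7 other peptidases, Lnpep (0.25 ± 0.07), which trims peptides in endosomes, and Nrdc (0.19 ± 0.06) were higher, but both calls were lost with median ratio scaling, and leaving out 1 sample ended that of Lnpep in 4 of 6 fits and that of Nrdc in 5 of 6. Lap3 (-1.07 ± 0.07) and Thop1 (-0.35 ± 0.08), cytosolic peptidases that destroy or trim proteasome products, were lower, and the other 3 did not pass. The peptide-trimming genes thus held members on both sides, with Erap1 the one with the highest log2 fold change among them.

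Of 14 transcriptional regulators of class I genes, 4 were higher, 1 was lower and 9 did not pass (median 0.07), which is not far from the 22.3% called higher and 17.1% called lower over all tested genes. Rfx5, the DNA-binding subunit of the RFX complex on class I and class II promoters, went from 5.70, 5.30 and 5.05 FPKM to 10.37, 10.04 and 10.72 FPKM (log2 fold change 0.84 ± 0.06 (SE)). Rfx5 was above every member in log2 fold change, and its groups lay far apart. Irf9, a member of the IRF family that takes part in interferon signalling, was higher by less (0.30 ± 0.06), and Nfya, a subunit of the CCAAT-binding factor NF-Y, was lower (-0.39 ± 0.06). As context outside the pathway, 14 of 18 tested interferon-induced genes were higher, 0 were lower (1 at an unadjusted p under 0.05) and 4 did not pass in limma, with a median of 0.67.

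Receptors that read class I molecules were described as well. Cd8a and Cd8b1, the chains of the CD8 co-receptor that binds the stem of classical class I molecules, had log2 fold changes of 0.66 ± 0.05 (SE) and 0.55 ± 0.06. Cd8a was at 230, 239 and 226 FPKM in MWA+PBS and at 363, 359 and 377 FPKM in MWA+2DG, so a gene that marks the sorted cells differed by about as much as H2-T23. Klrd1 and Klrc1, which form the CD94/NKG2A receptor for the H2-T23 product, had log2 fold changes of 1.07 ± 0.14 and 0.40 ± 0.10. The call of Klrc1 was lost without MWA+PBS replicate 1 or MWA+2DG replicate 5. Klrd1 was at 23.5, 31.9 and 21.7 FPKM in MWA+PBS and at 52.5, 49.6 and 61.1 FPKM in MWA+2DG, and the groups did not overlap. Of the 8 receptor genes tested, 6 were higher and 1, Pirb, an inhibitory class I receptor of myeloid and B cells, was lower (-1.48 ± 0.08). Over all tested genes, 22.3% were called higher and 17.1% lower. The macrophage markers were lower and the neutrophil and B cell markers higher in the same samples, and their part was not tested. Cd8a and Cd8b1, both among the higher receptor genes, belong to the T lineage list as well, where all 16 genes had a higher MWA+2DG mean. Fewer receptor genes were called under the scaling to T lineage genes.

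**Figure D4:**
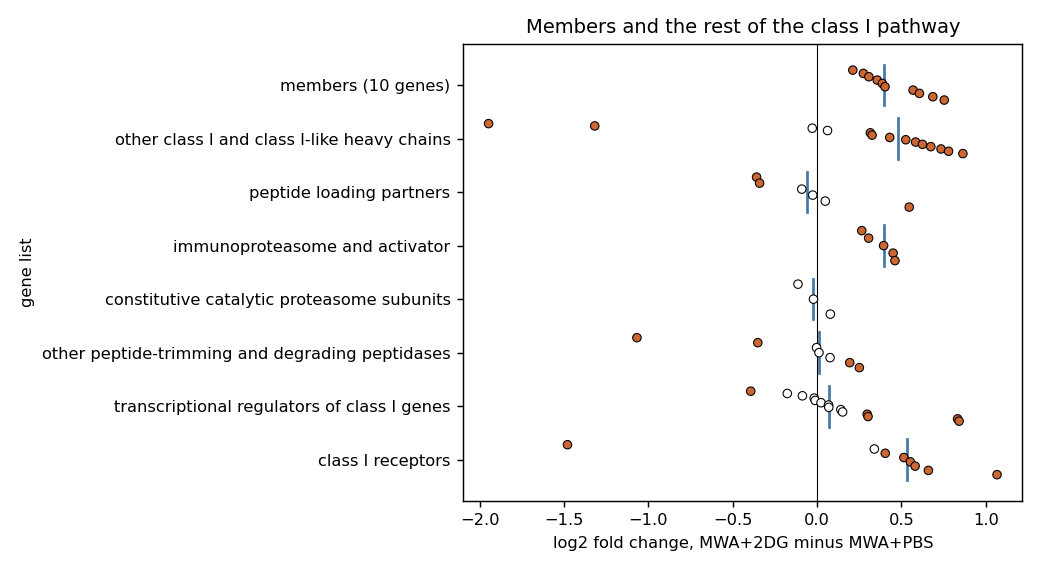
Log2 fold change (MWA+2DG minus MWA+PBS) of the 10 members and of each tested gene of 7 other class I pathway lists, 1 point per gene, filled orange where the limma adjusted p was under 0.05 and white otherwise, with a blue bar at each list's median. The members and the immunoproteasome and activator genes lie to the right of 0 throughout, the constitutive proteasome subunits lie close to 0, and the other lists hold genes on both sides.

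In the mean of the members' centred log2 values, MWA+PBS replicate 3 was the lowest sample (-0.28, against -0.20 in the other MWA+PBS samples) and MWA+2DG replicate 4 the highest (0.26, against 0.20 and 0.23). The members shared the difference between the groups but not the order of the samples within a group. Replicate 3 was the highest MWA+PBS sample for Tapbp and Nlrc5, and replicate 4 was the lowest MWA+2DG sample for Erap1. Nlrc5 lay nearest to that mean profile (root mean square difference 0.0723 on the log2 scale) and H2-Q7 farthest (0.154). Of all other tested genes, the 5 with the profile most like it were Il27ra, Trim26, Sept6, Il6st and Carmil2 (root mean square differences 0.0152 to 0.0216 over 6 samples). Il27ra, a chain of the interleukin-27 receptor, was at 72.2, 73.0 and 68.7 FPKM in MWA+PBS and at 99.7, 94.2 and 95.7 FPKM in MWA+2DG. Il6st, the shared signalling chain gp130, was at 24.4, 23.9 and 23.7 FPKM and at 34.0, 32.8 and 33.0 FPKM. With 6 samples in 2 groups, this likeness rests mainly on the difference between the groups. Together the 10 members took 0.761% ± 0.0099 (SD, n = 3) of the summed FPKM of a library with PBS and 0.994% with 2DG.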

How the data were processed

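Poly(A) RNA of 6 samples was sequenced. The submitters' processing notes name cutadapt 1.9, UMI-tools, HISAT2 2.0.4, StringTie 1.3.4d and the mm9 build, and the methods name fastp, HISAT2, StringTie and ballgown. The sources used here give neither the annotation nor whether strand and molecular identifiers were used. The deposited values were FPKM with 2 decimals per gene. FPKM is relative to the library, so a gene that takes more lowers the others. No common 1-fragment step was found in FPKM times length, so whole reads were not recovered, the depth of a sample is unknown.

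Symbols were taken from a gene name table (28689 of 28773 IDs). The fit used limma 3.58.1 in R 4.3.3 (lmFit, eBayes with a trend) on log2(FPKM + 1), which understates changes of low genes. It took genes with a mean of at least 1 FPKM, without covariates. A run on simulated data drew noise independently and shifted few genes, unlike these data, so it does not vouch for the calls here. The members and gene lists were chosen with earlier results of these data known. All 10 members were named. From each pathway list, up to 4 genes past an adjusted p of 0.05 with the largest log2 fold changes were named, with Cd8a, Cd8b1, Klrd1 and Klrc1 always, and the 5 most alike genes. Psmb5, Psmb6 and Psmb7 were named outside this rule, for the ratios, after their values were seen, and so was the choice of pathway genes given by sample. A gene that the rule names is not reported here. Alternatives were another pseudocount (0.1), other filters (none, mean of 5 FPKM), 4 other scalings, other variance settings and leaving out each sample. Promoters came from RefSeq (GRCm38.p6) for 8 of 10 members.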

Additional observations from a re-analysis of the deposited data

How the results depend on the processing

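All 10 members kept their direction on the deposited scale and with a pseudocount of 0.1, with every filter, with median ratio scaling, with FPKM rescaled to leave out ribosomal protein, haemoglobin, immunoglobulin and mitochondrial genes, with both variance settings and in each fit without a sample. The exceptions came from the other scalings. Relative to T lineage genes, H2-K1 (-0.0545), H2-D1 (-0.15), B2m (-0.18), Tap2 (-0.25), Tapbp (-0.0707) and Erap1 (-0.10) reversed, and so did Psme2 (-0.00663), Psmb8 (-0.0628), Psmb10 (-0.15), Lnpep (-0.21), Nrdc (-0.26), Irf9 (-0.16) and Klrc1 (-0.0532). Nlrc5 was no longer called (0.11). By construction this scaling subtracts the higher T lineage level. Under it 3 members were higher, 3 were lower and 1 passed the study's rule of P and size, and the counts were 9313 (8883 by that rule) over all tested genes, 7 for other heavy chains, 5 for loading partners, 2 for the immunoproteasome, 3 for constitutive subunits, 13 for regulators and 3 for receptors. Quantile normalization gave B2m a log2 fold change of 0, because B2m had rank 20 in every sample and that method gives equal ranks equal values. B2m was weaker with no filter (0.27, adjusted p = 0.198). A mean of at least 5 FPKM left 2951 calls (2562 by the size rule) because fewer genes were tested, and a log2 fold change beyond 1 left 0 members. Median ratio scaling called 1 constitutive subunit and 2 peptidases, and the cause was not tested.

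Leaving out 1 sample gave 8 to 10 members higher at an adjusted p under 0.05, 0.25 to 0.30 for B2m, 0.17 to 0.24 for Tap2 and 2 to 4 called peptidases (2 without MWA+PBS replicate 1 or 3 or MWA+2DG replicate 5 or 6). Lnpep lost its call in those fits, Nrdc without MWA+PBS replicate 1 or 3 or any MWA+2DG sample, and Klrc1 without MWA+PBS replicate 1 or MWA+2DG replicate 5. No paired analysis was possible because the labels give no pairing of the samples. With FPKM alone, counting error cannot be separated from the spread between samples, and with 3 samples a group the intervals of B2m and Tap2 reach down to 0.12 and 0.09.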
